A study of Mus musculus with 24 samples.

Results

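Quadriceps muscle of delEx44 mice and of WT mice was compared after downhill running, with 2 libraries in each group. These are 4 of the 24 libraries of the series, and they were chosen by their genotype and exercise labels, not by any measured value. The series profiled WT, delEx44 and gene-edited (corrected) delEx44 mice that were sedentary at 4 weeks, had run, or were sedentary at 18 months. The delEx44 mice lack exon 44 of Dmd, the dystrophin gene, and are a mouse model of Duchenne muscular dystrophy. The WT mice have the intact gene, and neither run group used here carries the CRISPR-Cas9 label of the corrected mice. Both run groups are labelled C57BL/6 and 8 weeks old. They ran down a slope of 15 degrees at 12 m/min on alternate days for 1 month, beginning at 1 month of age. The sex of the mice, their litters and the number of founders of the delEx44 line are not given in the labels.

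Dystrophin ties the actin cytoskeleton of a muscle fibre, through dystroglycan and the sarcoglycans, to laminin outside the cell. In its absence the fibre membrane tears during contraction, above all when the muscle lengthens under load as it does on a downhill run, and fibres die and are rebuilt by satellite cells, the stem cells of muscle. New fibres pass through a stage with embryonic myosins and fetal acetylcholine receptors, while macrophages clear debris and fibroblasts lay down collagen.

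Levels are given in CPM, the usual unit of counts scaled to the library total, with TMM factors applied, and replicate 1 stands before replicate 2. Differences are log2 fold changes of delEx44 over WT with their standard errors (SE), and adjusted p-values are from edgeR's quasi-likelihood test with Benjamini-Hochberg adjustment over 15013 genes. Each SE was worked back from that test, as the absolute log2 fold change divided by the square root of the F statistic. Some genes are named by a rule of size and significance, and others for their role, chosen after their values were seen. A gene is said to have risen or fallen in delEx44 muscle where that adjusted p was under 0.05. Each call was recomputed under 9 alternatives, which were other normalizations, filters and tools, the 4 run libraries alone, and each run library left out in turn. A call named as lost missed the threshold under the alternative given. Nothing in the labels says how the animals of a group are related, and the p-values measure the spread between samples. That spread was estimated over 15 libraries, those of sedentary 4-week and corrected mice included.

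The libraries held 35.8 and 34.4 M gene counts (M, mega) in delEx44 muscle and 34.3 and 37.5 M in WT muscle. Transcripts that define skeletal muscle were abundant in all 4: Ckm, the muscle creatine kinase, had 26026 and 26016 CPM in delEx44 and 30518 and 32042 CPM in WT muscle, and the keratinocyte keratins Krt5 and Krt14 had 0 or 1 counts per library. WT replicate 1 stood apart from the other 3 run libraries. The Y-linked gene Ddx3y had 87.3 and 85.7 CPM in delEx44 and 0.0297 and 106 CPM in WT muscle, and Kdm5d and Uty had 0 counts in that library alone. Xist, made from the inactive X chromosome of females, had 4 and 1 counts in delEx44 and 5 and 2 in WT muscle. It also carried more fat transcripts: Fasn, fatty acid synthase, had 116 and 113 CPM in delEx44 and 885 and 109.7 CPM in WT muscle, and Plin1, which coats fat droplets, had 14.5 and 12.9 CPM in delEx44 and 78.6 and 14.7 CPM in WT muscle. Ucp1, the uncoupling protein of brown fat, had 0 and 0.111 CPM in delEx44 muscle, against 23.4 and 0 CPM in WT muscle. Of the adipocyte list, 0 of 20 tested members rose and 2 fell (0 and 0 without WT replicate 1, 0 and 5 without WT replicate 2, 0 and 0 without delEx44 replicate 2, 0 and 0 over the 4 run libraries alone), with a median log2 fold change of -1.21 (-1.92 to 0.074 with 1 run library left out). Counts without WT replicate 1 stand in brackets beside the gene lists. Leaving out any run library lowered the total number of calls, so these counts do not isolate the part of WT replicate 1.

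**Figure D1:**
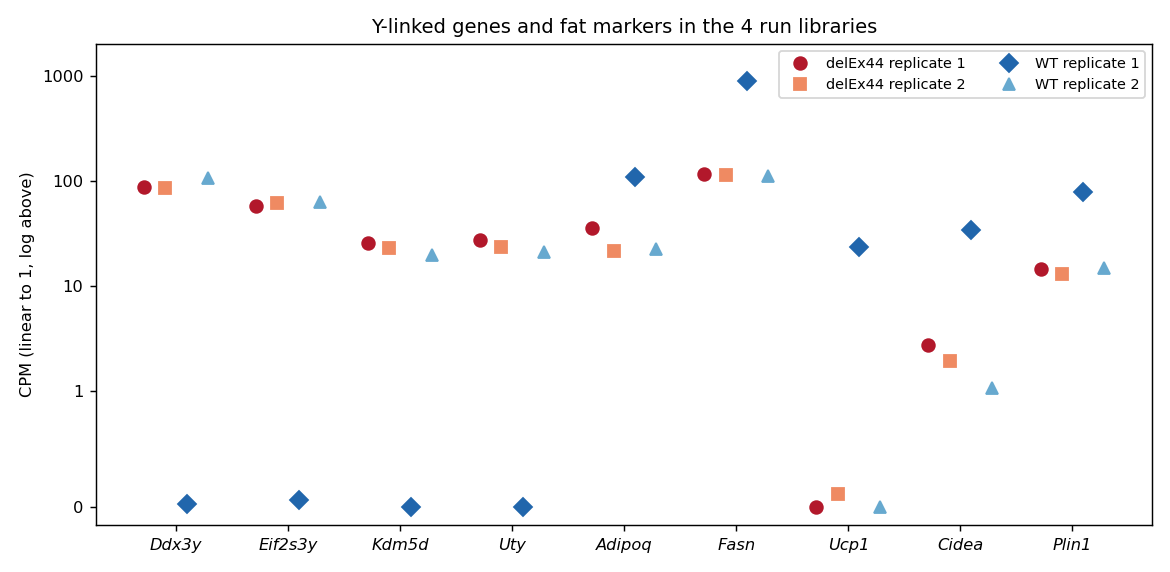
Levels of 4 Y-linked genes and 5 fat markers in the 4 run libraries, in CPM on an axis that is linear up to 1 and logarithmic above. Each point is 1 library; WT replicate 1 has the lowest level of every Y-linked gene and the highest of every fat marker.

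The genotypes differed broadly after running: 4370 of 15013 genes passed (29.1%), 2239 higher (14.9%) and 2131 lower (14.2%) in delEx44 muscle. Large rises outnumbered large falls. Among genes that passed, 929 rose by at least 1 log2 unit (6.19% of those tested) and 296 fell by as much (1.97%). The libraries of the 2 genotypes did not overlap for 9560 genes (63.7%), passed or not. The median log2 fold change over all genes tested was -0.012. The shares higher and lower over all genes are the background for the count of each gene list below. Of the 4370 calls, 1579 kept their call under all 9 alternatives, 979 higher and 600 lower. The count was 3187 without WT replicate 1 and 2384 without WT replicate 2, and 2330 when the 4 run libraries were fitted alone.

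Dmd itself was measured first, since it checks the labels. It had 40.7 and 41.8 CPM in delEx44 and 148 and 159.9 CPM in WT muscle (log2 fold change -1.90, SE 0.10, adjusted p = 4.20e-07). The libraries of each genotype lay close together and the genotypes did not overlap, with mean Dmd at 26.8% of the WT mean. Dmd spans chromosome X, 82948870 to 85206141 on the plus strand (GRCm38). Reads from all of its exons are pooled in the count, so the level does not report on exon 44 alone. The deleted exon is number 44 of 79 in the full-length muscle transcript, and its removal joins exons that are out of frame. It is shown because it is the whole of the genetic difference named in the labels:

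Dmd exon 44: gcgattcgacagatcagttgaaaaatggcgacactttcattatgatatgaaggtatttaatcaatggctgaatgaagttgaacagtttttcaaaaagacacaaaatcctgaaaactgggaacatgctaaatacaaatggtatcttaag

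Without it, the join of exons 43 and 45 reads into a stop codon after 46 bases of exon 45. The run of bases below holds the last 20 bases of exon 43 and exon 45 up to that stop, which is in capitals.

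Exon 43 to exon 45 join: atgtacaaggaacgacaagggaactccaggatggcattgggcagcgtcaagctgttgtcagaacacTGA

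The partners of dystrophin moved singly. Of the dystrophin complex, 3 of 18 tested members rose and 3 fell (1 and 3 without WT replicate 1), a share near that over all genes, with a median log2 fold change of -0.010 (-0.14 to 0.093 with 1 run library left out). Nos1, the neuronal nitric oxide synthase that dystrophin anchors under the membrane, fell: it had 13.0 and 13.7 CPM in delEx44 and 33.7 and 45.1 CPM in WT muscle (log2 fold change -1.56, SE 0.21, adjusted p = 3.41e-04). Its groups did not overlap. Sntb1, a syntrophin adaptor of the complex, rose: it had 8.30 and 7.89 CPM in delEx44 muscle, against 4.03 and 3.81 CPM in WT muscle (log2 fold change 1.04, SE 0.23, adjusted p = 0.00483). Both Sntb1 libraries of delEx44 muscle were above both WT libraries. Dtna, alpha-dystrobrevin, had a smaller rise (log2 fold change 0.42), a call lost without WT replicate 1 (adjusted p = 0.0694). No transmembrane member passed: Dag1, dystroglycan, had 367 and 391 CPM in delEx44 and 338 and 422 CPM in WT muscle, with overlapping groups, and Sgca, alpha-sarcoglycan, had a log2 fold change of -0.19. Utrn, utrophin, the autosomal relative of dystrophin, had 74.1 and 69.3 CPM in delEx44 and 62.4 and 70.6 CPM in WT muscle, a difference that did not pass (log2 fold change 0.11, SE 0.091, adjusted p = 0.404).

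Outside the membrane, laminin chains and integrins split by member. Of the laminin, integrin and glycosylation list, 6 of 19 tested members rose and 2 fell (4 and 2 without WT replicate 1, 4 and 1 without WT replicate 2, 4 and 1 without delEx44 replicate 1, 3 and 1 without delEx44 replicate 2, 4 and 1 over the 4 run libraries alone), with a median log2 fold change of 0.17. Lamc3, the laminin gamma-3 chain, had the largest fall of the list: 0.843 and 0.831 CPM in delEx44 muscle, against 7.24 and 4.66 CPM in WT muscle (log2 fold change -2.82, SE 0.36, adjusted p = 1.87e-04). All 4 libraries kept to their genotype's side, 7.08-fold apart. Itga5, the fibronectin receptor subunit (1.00), Lamb1, laminin beta-1 (0.76), and Itgb1, the shared beta-1 integrin (0.52), rose, as log2 fold changes. Lama2, the chain of the main muscle laminin, had a log2 fold change of 0.43, a call lost over the 4 run libraries alone and without delEx44 replicates 1 or 2 or WT replicate 1 (adjusted p = 0.0585 to 0.202). Among the enzymes that glycosylate dystroglycan, Pomt1 had a log2 fold change of -0.23 that did not pass.

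Genes of membrane resealing that passed had all risen. Of the membrane repair list, 8 of 15 tested members rose and 0 fell (8 and 0 without WT replicate 1), with a median log2 fold change of 0.35. Myof, myoferlin, a calcium-binding protein of membrane fusion, was 2.71-fold higher: it had 43.97 and 48.2 CPM in delEx44 muscle, against 15.7 and 18.4 CPM in WT muscle (log2 fold change 1.44, SE 0.11, adjusted p = 1.03e-05). Anxa1, an annexin that binds injured membrane, had 132 and 107 CPM in delEx44 muscle, against 43.4 and 46.01 CPM in WT muscle (log2 fold change 1.42, SE 0.15, adjusted p = 4.88e-05). For both genes the lowest delEx44 library was above the highest WT library. Anxa4 and Anxa2, of the same family, rose by 1.28 and 0.95 log2 units. Dysf, dysferlin, and Trim72, which also act in resealing, had log2 fold changes of 0.20 and 0.23 that did not pass. Dysf did pass without delEx44 replicate 1 (adjusted p = 0.0122).

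**Figure D2:**
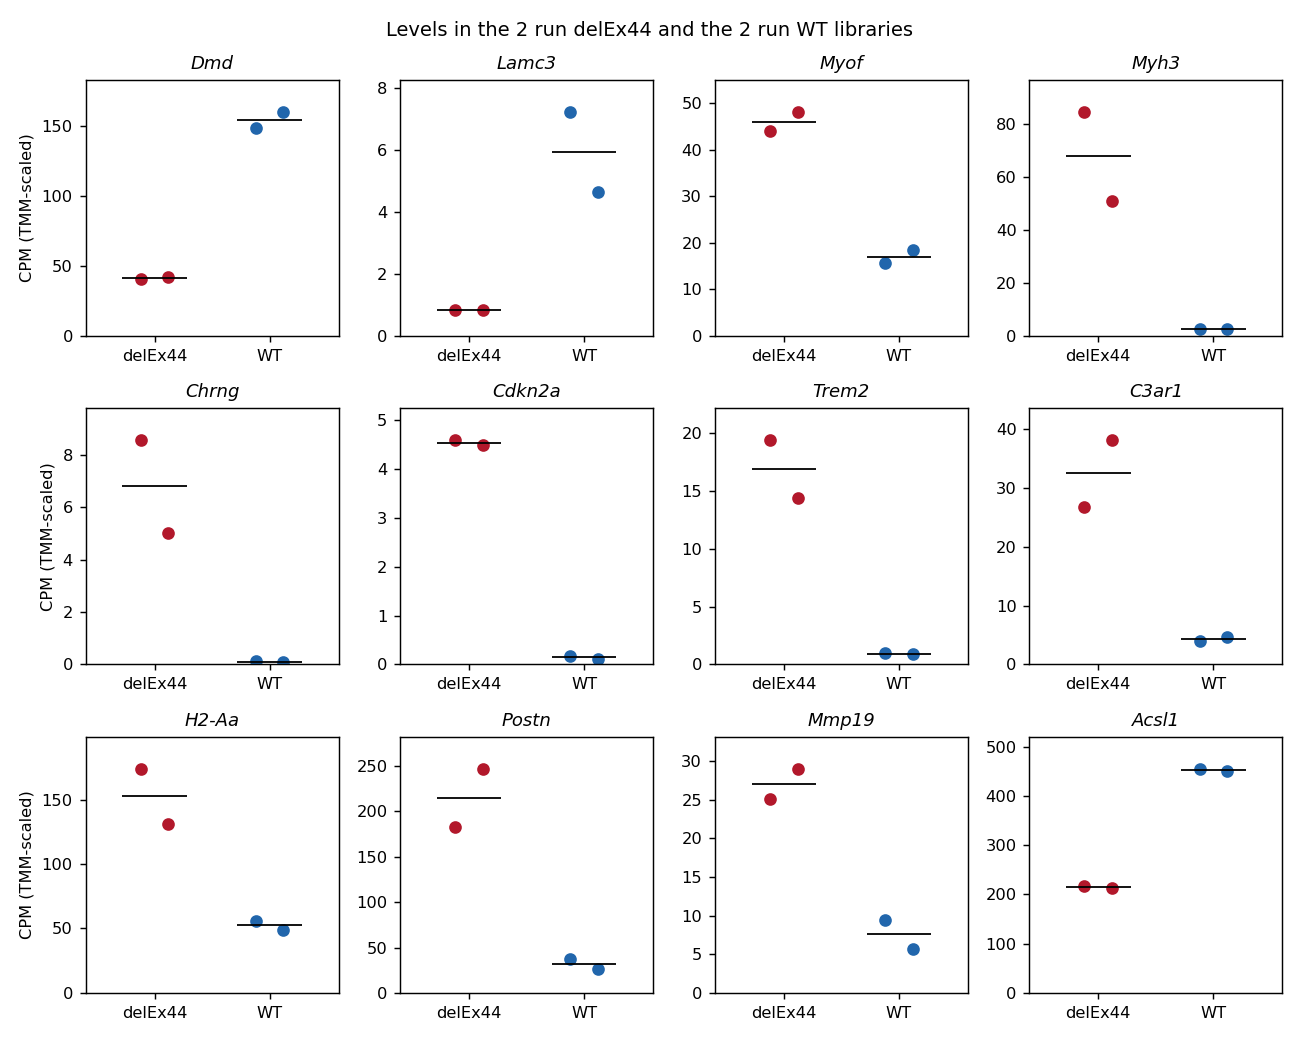
Levels of 12 genes in the 2 delEx44 and 2 WT run libraries, in TMM-scaled CPM. Each point is 1 library and each line the mean of its group. Dmd, Lamc3 and Acsl1 are lower and the other 9 higher in delEx44 muscle. The 12 were picked from genes that passed, and their groups do not overlap, as for 63.7% of all genes tested.

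Transcripts of newly formed fibres were among the largest rises. Of the embryonic and stressed fibre list, 11 of 19 tested members rose and 1 fell (11 and 1 without WT replicate 1, 10 and 2 without delEx44 replicate 2, 11 and 2 under DESeq2), with a median log2 fold change of 1.38. Myh3, embryonic myosin heavy chain, had 84.5 and 51.0 CPM in delEx44 and 2.70 and 2.71 CPM in WT muscle (log2 fold change 4.64, SE 0.52, adjusted p = 1.92e-04). Myh8, the perinatal myosin, had 70.7 and 53.8 CPM in delEx44 and 4.39 and 6.04 CPM in WT muscle (log2 fold change 3.57, SE 0.41, adjusted p = 2.12e-04). Both delEx44 libraries held many times the level of either WT library for each myosin, and the delEx44 libraries themselves differed by less than 2-fold for Myh3. Myl4 and Tnnt2, the embryonic light chain and the cardiac troponin T that developing skeletal fibres also use, rose by 3.78 and 3.48 log2 units. Igf2, a fetal growth factor, and H19, the non-coding RNA made from the neighbouring imprinted locus, rose by 2.14 and 1.90. Actc1, cardiac actin, which early fibres use too, had a log2 fold change of 0.49 that did not pass. Actc1 did pass without WT replicate 1 (adjusted p = 0.0212).

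Some late and fusion genes of satellite cells rose. Of the satellite cell, myogenic factor and fusion list, 7 of 21 tested members rose and 1 fell (4 and 1 without WT replicate 1, 4 and 1 without delEx44 replicate 1, 4 and 1 over the 4 run libraries alone), with a median log2 fold change of 0.33 (0.14 to 0.28 with 1 run library left out). Gm7325, the fusion peptide myomixer, had 278 counts over both delEx44 libraries and 0 over both WT libraries, at least 86.5-fold higher against a floor of 3 counts over the group. Myog, the factor that switches on terminal differentiation, had 36.4 and 23.3 CPM in delEx44 and 6.64 and 5.76 CPM in WT muscle (log2 fold change 2.27, SE 0.44, adjusted p = 0.00393). Its groups did not overlap. The quiescence and commitment factors did not pass: Pax7 had 3.74 and 4.96 CPM in delEx44 and 3.17 and 3.64 CPM in WT muscle (log2 fold change 0.35, SE 0.24, adjusted p = 0.288), and Myod1 had 20.9 and 31.0 CPM in delEx44 and 45.3 and 26.7 CPM in WT muscle (log2 fold change -0.47, SE 0.29, adjusted p = 0.251). The genotypes overlapped for Myod1. Mstn, myostatin, a secreted brake on muscle growth, fell: it had 37.3 and 38.8 CPM in delEx44 and 74.9 and 75.6 CPM in WT muscle (log2 fold change -0.98, SE 0.16, adjusted p = 9.33e-04).

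Subunits of the acetylcholine receptor rose. Of the acetylcholine receptor and junction list, 9 of 18 tested members rose and 1 fell (8 and 1 without WT replicate 1), with a median log2 fold change of 0.42. Chrng, the gamma subunit of the fetal receptor, had 8.56 and 5.04 CPM in delEx44 muscle, against 0.119 and 0.0847 CPM in WT muscle (log2 fold change 6.02, SE 0.69, adjusted p = 1.52e-04). Chrna1 and Chrnd, the alpha and delta subunits shared by fetal and adult receptors, rose by 1.36 and 1.48 log2 units. Chrne, the epsilon subunit that replaces gamma in the adult receptor, had 21.9 and 24.4 CPM in delEx44 and 25.003 and 24.9 CPM in WT muscle and did not pass (log2 fold change -0.11, SE 0.097, adjusted p = 0.432). Runx1, a transcription factor raised in denervated muscle, had 15.2 and 15.9 CPM in delEx44 and 3.59 and 2.77 CPM in WT muscle (log2 fold change 2.29, SE 0.28, adjusted p = 1.56e-04). Each of Chrng and Runx1 was higher in both delEx44 libraries than in either WT library. Musk, the kinase that clusters the receptor under the nerve, had 19.1 and 15.6 CPM in delEx44 and 9.85 and 11.8 CPM in WT muscle and did not pass (adjusted p = 0.0816). Musk did pass under DESeq2 and over the 4 run libraries alone (adjusted p = 0.0308 to 0.0403).

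Myogenic factors bind E-boxes, and CAGCTG is an E-box form they bind, which reads the same on both strands. It was searched for in promoters of genes from the embryonic and stressed fibre, satellite cell and junction lists. From each list, up to 5 members with the smallest p-values were taken where they passed. The window runs from 250 bases before to 50 after the RefSeq gene start. Of 15 such genes looked up, 11 had a window (15 windows in all, as some genes have more than 1) and 1 held the motif. That gene was Chrng, which is shown for that reason. The motif is in 16.3% of all RefSeq promoter windows of this length (5355 of 32851). The Chrng window is chr1:87205561-87205860 on the plus strand of GRCm38.p6, with the matches, which begin 155 and 132 bases before the start, in capitals. A match is a description of these letters and not a measured site.

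Chrng promoter: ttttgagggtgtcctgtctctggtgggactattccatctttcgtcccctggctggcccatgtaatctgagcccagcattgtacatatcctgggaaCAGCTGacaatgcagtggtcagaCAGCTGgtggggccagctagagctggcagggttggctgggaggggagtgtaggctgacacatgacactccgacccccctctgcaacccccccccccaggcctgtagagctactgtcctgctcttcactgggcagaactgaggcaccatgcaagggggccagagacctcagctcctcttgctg

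Most sarcomere genes did not pass. Over all genes tested, 14.9% were higher and 14.2% lower. Of the fast fibre sarcomere list, 0 of 18 tested members rose and 3 fell (0 and 2 without WT replicate 1, 0 and 6 under DESeq2), with a median log2 fold change of -0.26. Myh4, the myosin of the fastest fibres, had 28157 and 38274 CPM in delEx44 muscle, against 41089 and 43777 CPM in WT muscle and did not pass (log2 fold change -0.35, SE 0.18, adjusted p = 0.154). Of the slow fibre sarcomere list, 1 of 14 tested members rose and 1 fell (0 and 0 without WT replicate 1), with a median log2 fold change of -0.32 (-0.72 to -0.13 with 1 run library left out). Myh7, the slow myosin, had 191 and 92.3 CPM in delEx44 muscle, against 335 and 267 CPM in WT muscle. Both delEx44 libraries were lower, but the difference did not pass (log2 fold change -1.09, SE 0.85, adjusted p = 0.371).

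Few calcium handling genes passed, and ion channel genes moved one by one. Over all genes tested, 14.9% were higher and 14.2% lower. In the fit of 15 libraries neither share of the calcium handling list exceeded these. Of the calcium handling list, 1 of 25 tested members rose and 3 fell (1 and 3 without WT replicate 1, 1 and 1 without WT replicate 2, 2 and 2 without delEx44 replicate 1, 2 and 5 under DESeq2, 1 and 1 over the 4 run libraries alone), with a median log2 fold change of -0.18. Sln, sarcolipin, a small inhibitor of the SERCA calcium pumps, had 60.7 and 39.9 CPM in delEx44 and 5.10 and 2.48 CPM in WT muscle (log2 fold change 3.73, SE 0.46, adjusted p = 2.91e-04). It was higher in both delEx44 libraries than in either WT library. Atp2a1, the pump of fast fibres, had 26242 and 29320.1 CPM in delEx44 muscle, against 27352 and 31944 CPM in WT muscle and did not pass (adjusted p = 0.647). Stac3, which couples the voltage sensor to the release channel, fell by 0.49 log2 units. Of the ion channel list, 3 of 28 tested members rose and 7 fell (3 and 8 without WT replicate 1, 2 and 4 without WT replicate 2), with a median log2 fold change of -0.28. Kcnma1, the large-conductance calcium-activated potassium channel, had 22.8 and 25.9 CPM in delEx44 and 47.5 and 46.5 CPM in WT muscle (log2 fold change -0.95, SE 0.11, adjusted p = 1.28e-04). Kcnj11, the pore of the ATP-sensitive potassium channel, fell by 0.66, and Scn4b, a sodium channel beta subunit, by 0.54 log2 units. Trpv2, a cation channel, and Kcnn3, a small-conductance calcium-activated potassium channel, rose by 1.14 and 1.49.

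Macrophage transcripts rose as a whole. In whole muscle, more cells of a type and more RNA per cell cannot be told apart. Of the pan macrophage list, 28 of 28 tested members rose and 0 fell (27 and 0 without WT replicate 1), with a median log2 fold change of 1.91. Cd68, a lysosomal protein of macrophages, had 51.4 and 63.1 CPM in delEx44 and 8.30 and 8.10 CPM in WT muscle (log2 fold change 2.80, SE 0.28, adjusted p = 6.81e-05). Csf1r, the receptor for the factor macrophages need to survive, had 111 and 111 CPM in delEx44 muscle, against 44.8 and 49.8 CPM in WT muscle (log2 fold change 1.23, SE 0.18, adjusted p = 4.12e-04). Cx3cr1, a chemokine receptor of tissue macrophages, rose by 2.29 log2 units. The groups did not overlap for any of these 3 genes.

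Genes of lipid-laden phagocytes rose too. Of the lipid-associated phagocyte list, 17 of 24 tested members rose and 2 fell (18 and 2 without WT replicate 1), with a median log2 fold change of 1.53. Trem2, the lipid-sensing receptor of these cells, had 19.4 and 14.4 CPM in delEx44 and 1.01 and 0.875 CPM in WT muscle (log2 fold change 4.16, SE 0.32, adjusted p = 1.10e-05). Gpnmb, a glycoprotein of phagocytes with full lysosomes, had 235 and 129 CPM in delEx44 and 6.94 and 9.82 CPM in WT muscle (log2 fold change 4.44, SE 0.39, adjusted p = 5.15e-05). In both cases the lowest delEx44 library was far above the highest WT library. Lipa, the lysosomal acid lipase, was 3.16-fold higher (log2 fold change 1.66, SE 0.13, adjusted p = 1.10e-05). Spp1, osteopontin, had 112 and 69.9 CPM in delEx44 and 25.6 and 16.3 CPM in WT muscle and did not pass (log2 fold change 2.12, SE 1.41, adjusted p = 0.296). Spp1 did pass over the 4 run libraries alone (adjusted p = 0.0363). The spread in the fit of all libraries includes 246, 301 and 289 CPM in sedentary delEx44 muscle against 1.73, 3.36 and 122 CPM in sedentary WT muscle. Lpl, which frees fatty acids from lipoproteins and is made by fibres too, fell by 0.99 log2 units.

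Markers of resident-type macrophages split. Of that list, 7 of 18 tested members rose and 2 fell (6 and 1 without WT replicate 1, 4 and 2 without WT replicate 2, 5 and 1 without delEx44 replicate 1, 7 and 0 over the 4 run libraries alone), with a median log2 fold change of 0.26 (0.25 to 0.52 with 1 run library left out). Mrc1, the mannose receptor, had 71.2 and 109 CPM in delEx44 muscle, against 35.4 and 41.5 CPM in WT muscle (log2 fold change 1.23, SE 0.20, adjusted p = 8.93e-04), and Stab1, a scavenger receptor, rose by 1.15 log2 units. Timd4, a receptor for dying cells on long-lived resident macrophages, had a log2 fold change of -1.02, a call lost over the 4 run libraries alone and without delEx44 replicate 2 (adjusted p = 0.0659). Lyve1, a marker of macrophages along vessels, had 23.9 and 22.3 CPM in delEx44 muscle, against 17.0 and 24.5 CPM in WT muscle, with overlapping groups.

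Of the monocyte and cytokine list, 7 of 22 tested members rose and 0 fell (5 and 0 without WT replicate 1), with a median log2 fold change of 1.61 (0.82 to 1.96 with 1 run library left out). Among all genes tested, 14.9% were higher and 14.2% lower. Ccr2, the receptor that brings monocytes out of the blood, had 19.1 and 49.6 CPM in delEx44 muscle, against 9.34 and 8.58 CPM in WT muscle (log2 fold change 1.94, SE 0.38, adjusted p = 0.00412), a call lost over the 4 run libraries alone (adjusted p = 0.136). Replicate 2 of delEx44 muscle had the higher level, and both were above WT. Arg1, arginase, had 58 counts over the delEx44 libraries and 3 over the WT libraries, a ratio of 18.0 (counting interval 5.88 to 90.0). Tnf, an inflammatory cytokine of activated macrophages, had 0.422 and 0.803 CPM in delEx44 and 0.208 and 0.169 CPM in WT muscle and did not pass (adjusted p = 0.0594).

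Chemokines rose in number. Of the chemokine list, 17 of 23 tested members rose and 0 fell (13 and 0 without WT replicate 1, 10 and 0 without WT replicate 2, 11 and 0 without delEx44 replicate 2, 10 and 0 over the 4 run libraries alone), with a median log2 fold change of 2.11. Ccl8, a monocyte attractant, had 10.5 and 16.5 CPM in delEx44 muscle, against 1.54 and 1.13 CPM in WT muscle (log2 fold change 3.34, SE 0.44, adjusted p = 3.11e-04). Ccl3, an attractant of monocytes and T cells, rose by 3.98 log2 units. Ccl22, an attractant of regulatory T cells, had 1.42 and 2.16 CPM in delEx44 and 0.178 and 0.367 CPM in WT muscle (log2 fold change 2.69, SE 0.38, adjusted p = 2.99e-04). Each of Ccl8 and Ccl22 was higher in both delEx44 libraries than in either WT library. Ccl2, the main ligand of Ccr2, had 2.58 and 24.6 CPM in delEx44 muscle, against 1.10 and 0.734 CPM in WT muscle (log2 fold change 3.89, SE 1.10, adjusted p = 0.0254), a call lost under limma-voom, over the 4 run libraries alone and without delEx44 replicate 2 or WT replicates 1 or 2 (adjusted p = 0.0952 to 0.289). The delEx44 replicates of Ccl2 differed more than 9-fold, with replicate 1 near the WT levels. Cxcl12, made by stromal cells, had 112 and 135 CPM in delEx44 and 149 and 157 CPM in WT muscle and did not pass (log2 fold change -0.31, SE 0.16, adjusted p = 0.161).

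Complement receptors and the first component rose together. Of the complement list, 12 of 18 tested members rose and 1 fell (10 and 1 without WT replicate 1), with a median log2 fold change of 0.89. C3ar1, the receptor for the C3a fragment, had 26.8 and 38.1 CPM in delEx44 muscle, against 3.97 and 4.60 CPM in WT muscle (log2 fold change 2.92, SE 0.26, adjusted p = 3.58e-05). C5ar1, the receptor for C5a, rose by 2.09 log2 units. C1qa, C1qb and C1qc, the chains of C1q, rose by 1.46, 1.72 and 1.48 log2 units. C3 itself, the central component, had 248 and 256 CPM in delEx44 and 175 and 196 CPM in WT muscle and did not pass (log2 fold change 0.44, SE 0.29, adjusted p = 0.279). C3 did pass over the 4 run libraries alone (adjusted p = 0.0350). Cd59a, which blocks the membrane attack complex, had a log2 fold change of -1.43, a call lost without delEx44 replicate 2 or WT replicate 2 (adjusted p = 0.0734 to 0.108).

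Most class II antigen presentation genes rose, and no class I gene passed. Of the class II list, 10 of 13 tested members rose and 0 fell (10 and 0 without WT replicate 1), with a median log2 fold change of 1.35. H2-Aa, a class II alpha chain, had 174 and 131 CPM in delEx44 and 56.1 and 49.1 CPM in WT muscle (log2 fold change 1.54, SE 0.20, adjusted p = 2.65e-04), and Cd74, the invariant chain, had 299 and 229.8 CPM in delEx44 and 112 and 96.4 CPM in WT muscle (log2 fold change 1.35, SE 0.19, adjusted p = 3.90e-04). The groups did not overlap for either gene. Of the class I list, 0 of 12 tested members rose and 0 fell (1 and 0 without WT replicate 1, 2 and 0 under DESeq2), with a median log2 fold change of 0.32 (0.15 to 0.56 with 1 run library left out). By edgeR 3 class I genes reached an unadjusted p of 0.05, and by DESeq2 2 passed after adjustment. B2m, the class I light chain, had 299 and 251 CPM in delEx44 muscle, against 218 and 159 CPM in WT muscle (log2 fold change 0.54, SE 0.24, adjusted p = 0.107). B2m did pass under DESeq2 (adjusted p = 0.04999). Whether the class I and class II lists differed from each other was not tested. Of the interferon response list, 4 of 29 tested members rose and 0 fell (3 and 0 without WT replicate 1, 1 and 0 without WT replicate 2, 2 and 0 without delEx44 replicate 2, 10 and 0 under DESeq2, 2 and 0 under limma-voom, 8 and 0 over the 4 run libraries alone), with a median log2 fold change of 0.56. The share that rose was near that over all genes tested, of which 14.9% were higher and 14.2% lower. By edgeR 12 interferon response genes reached an unadjusted p of 0.05. How many of all genes did so was not counted, here or for class I, but 29.1% of all genes passed even after adjustment. Oasl1, an interferon-induced gene, rose by 1.66 log2 units. Isg15, a ubiquitin-like protein, had 3.72 and 4.68 CPM in delEx44 muscle, against 3.35 and 2.63 CPM in WT muscle and did not pass (adjusted p = 0.454).

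Of the lymphocyte list, 6 of 16 tested members rose and 0 fell (5 and 0 without WT replicate 1, 2 and 0 without WT replicate 2, 3 and 0 without delEx44 replicate 1, 1 and 0 over the 4 run libraries alone), with a median log2 fold change of 1.09 (0.67 to 1.78 with 1 run library left out). Cd4, the co-receptor of helper T cells, had 2.27 and 2.55 CPM in delEx44 muscle, against 0.415 and 0.310 CPM in WT muscle (log2 fold change 2.72, SE 0.52, adjusted p = 0.00216). Its groups did not overlap. Cd3e, a chain of the T-cell receptor complex, had 0.369 and 0.138 CPM in delEx44 and 0.237 and 0.0565 CPM in WT muscle and did not pass (adjusted p = 0.473). Gzmb, a granzyme of killer cells, had 23 counts over the delEx44 libraries and 1 over the WT libraries, a ratio of 21.5 (counting interval 3.49 to 884), a call lost without delEx44 replicate 2 or WT replicate 2 (adjusted p = 0.102 to 0.138). Of the neutrophil list, 0 of 12 tested members rose and 0 fell (0 and 0 without WT replicate 1, 2 and 0 over the 4 run libraries alone), with a median log2 fold change of -0.14 (-1.18 to 0.45 with 1 run library left out). S100a8, abundant in neutrophils, had 39.8 and 12.8 CPM in delEx44 muscle, against 32.0 and 22.7 CPM in WT muscle. By edgeR 0 neutrophil markers reached an unadjusted p of 0.05, and by DESeq2 0 passed after adjustment. Of all genes tested, 29.1% passed by edgeR after adjustment.

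**Figure D3:**
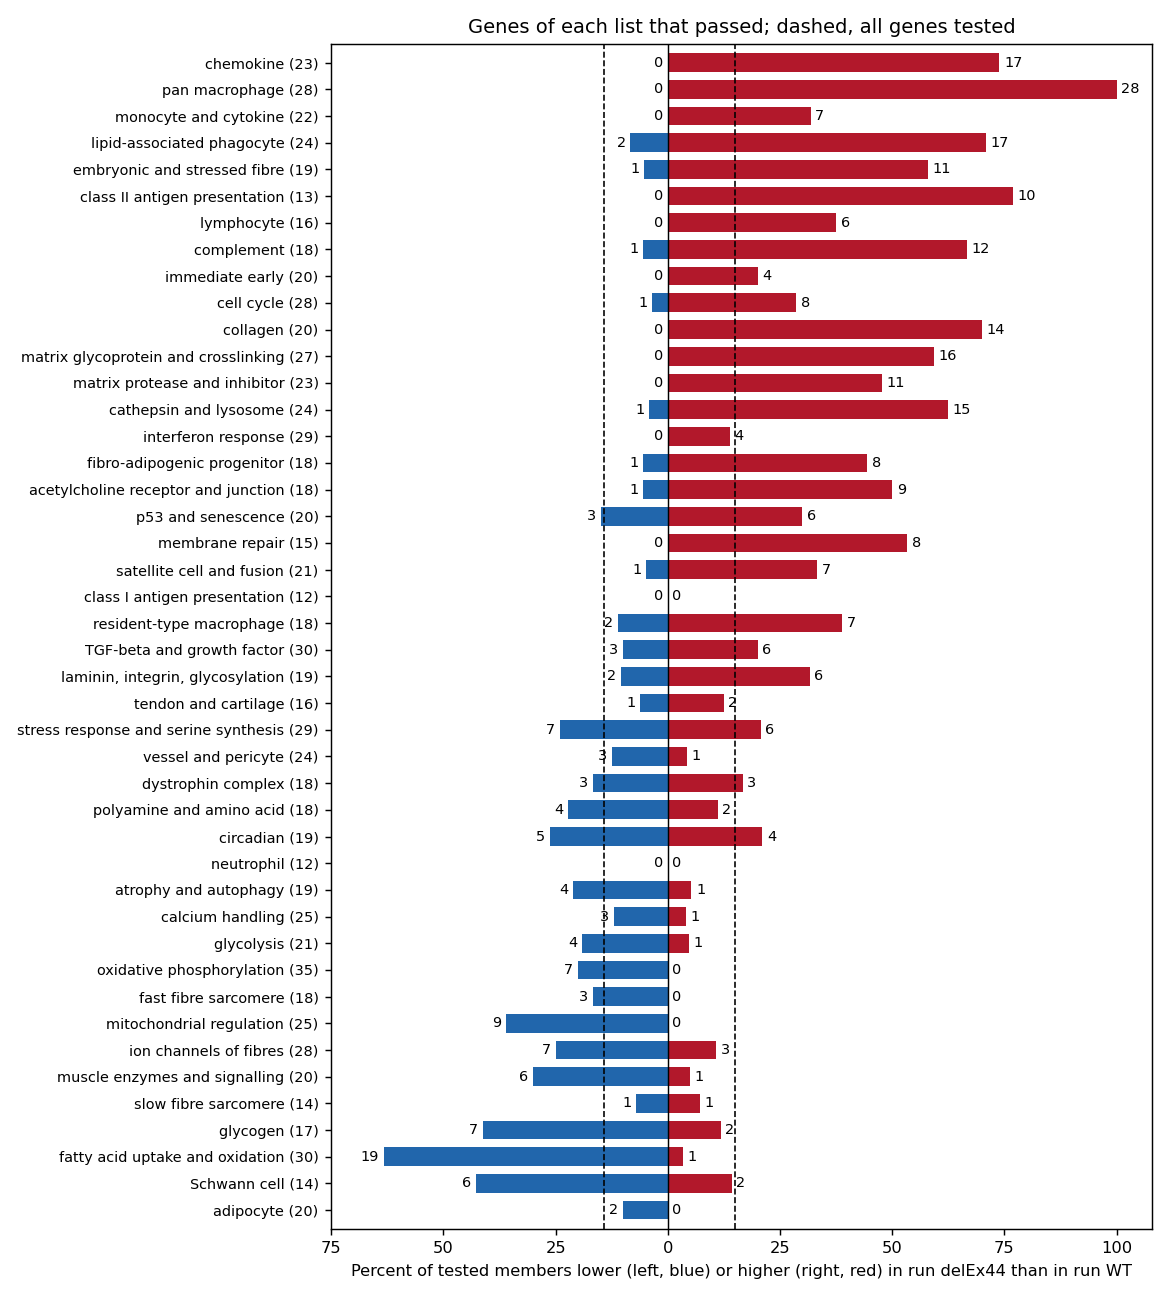
Share of each gene list that passed the test, in percent of its tested members (number in brackets): lower in delEx44 muscle to the left, higher to the right, with counts at the bar ends. Dashed lines mark the shares over all genes tested, 14.2% lower and 14.9% higher; lists are ordered by median log2 fold change.

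Collagens of several types rose. Of the collagen list, 14 of 20 tested members rose and 0 fell (11 and 0 without WT replicate 1), with a median log2 fold change of 0.73. Col3a1, type III collagen, had 1807 and 2412 CPM in delEx44 muscle, against 959 and 788 CPM in WT muscle (log2 fold change 1.27, SE 0.17, adjusted p = 2.53e-04). Col1a1, the main chain of type I collagen, had 636 and 862 CPM in delEx44 and 527 and 399 CPM in WT muscle and did not pass (log2 fold change 0.69, SE 0.26, adjusted p = 0.0603). Col1a1 did pass under DESeq2 and under limma-voom (adjusted p = 0.0165 to 0.0449). The groups did not overlap for Col3a1. Col14a1 and Col5a2, which associate with and nucleate fibrils, rose by 1.61 and 1.18 log2 units. Col6a1, Col6a2 and Col6a3, the chains of the collagen that surrounds fibres, rose by 0.71, 0.75 and 0.94. Col8a1, a short-chain collagen, had 33.6 and 49.0 CPM in delEx44 and 9.28 and 11.2 CPM in WT muscle (log2 fold change 2.01, SE 0.27, adjusted p = 4.24e-04).

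Of the matrix glycoprotein and crosslinking list, 16 of 27 tested members rose and 0 fell (14 and 0 without WT replicate 1), with a median log2 fold change of 0.72. Postn, periostin, a matricellular protein of healing tissue, had 182 and 247 CPM in delEx44 and 37.5 and 26.8 CPM in WT muscle (log2 fold change 2.74, SE 0.35, adjusted p = 3.19e-04). Lum, lumican, a proteoglycan that spaces collagen fibrils, had 167 and 186 CPM in delEx44 and 75.4 and 82.3 CPM in WT muscle (log2 fold change 1.16, SE 0.12, adjusted p = 4.64e-05). Both were higher in each delEx44 library than in each WT library. The crosslinking enzymes Loxl1, Loxl2 and Loxl3 rose by 0.95, 0.56 and 0.72 log2 units, and Fn1, fibronectin, by 1.06. Dcn, decorin, had 1230.3 and 1046 CPM in delEx44 and 843 and 1117 CPM in WT muscle and did not pass (log2 fold change 0.22, SE 0.13, adjusted p = 0.239).

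Proteases of the matrix and their inhibitors rose side by side. Of that list, 11 of 23 tested members rose and 0 fell (10 and 0 without WT replicate 1), with a median log2 fold change of 0.63. Adam8, a metalloprotease of myeloid cells, rose by 3.24 log2 units. Mmp19 had 25.004 and 29.0 CPM in delEx44 and 9.43 and 5.67 CPM in WT muscle (log2 fold change 1.84, SE 0.19, adjusted p = 5.47e-05). Its groups did not overlap. Mmp2 and Mmp14, a gelatinase and its membrane-bound activator, rose by 0.93 and 1.19. Timp1, an inhibitor of metalloproteases, had 8.67 and 32.6 CPM in delEx44 muscle, against 1.75 and 1.81 CPM in WT muscle (log2 fold change 3.53, SE 0.68, adjusted p = 0.00394), a call lost over the 4 run libraries alone (adjusted p = 0.104).

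Of the TGF-beta and growth factor list, 6 of 30 tested members rose and 3 fell (5 and 4 without WT replicate 1, 3 and 4 without WT replicate 2, 3 and 2 without delEx44 replicate 1, 3 and 5 without delEx44 replicate 2, 7 and 5 under DESeq2), with a median log2 fold change of 0.21. The share of the list that passed was near that over all genes tested, of which 14.9% were higher and 14.2% lower. Tgfb1, the ligand best known for driving fibrosis, had 22.7 and 22.7 CPM in delEx44 and 11.4 and 9.71 CPM in WT muscle (log2 fold change 1.11, SE 0.14, adjusted p = 1.47e-04). Its levels did not overlap between genotypes, while Tgfb2 and Tgfb3 had log2 fold changes of -0.40 and 0.18 that did not pass. Tgfb2 did pass under DESeq2 and without delEx44 replicate 2 or WT replicate 1 (adjusted p = 0.0288 to 0.0425). Smad3, which carries the TGF-beta signal to the nucleus, fell by 0.71 log2 units. Ctgf, a target of TGF-beta, had 147 and 51.7 CPM in delEx44 and 40.2 and 40.8 CPM in WT muscle and did not pass (log2 fold change 1.29, SE 0.60, adjusted p = 0.134). Of the fibro-adipogenic progenitor list, 8 of 18 tested members rose and 1 fell (7 and 0 without WT replicate 1), with a median log2 fold change of 0.53 (0.33 to 0.56 with 1 run library left out). Pdgfra, the receptor that defines these stromal cells, had 102 and 92.5 CPM in delEx44 and 49.1 and 65.9 CPM in WT muscle (log2 fold change 0.76, SE 0.11, adjusted p = 4.44e-04). Sfrp1 and Sfrp4, secreted Wnt antagonists, rose by 1.12 and 1.19. Ly6a, a further stromal marker, had a log2 fold change of 0.18 that did not pass.

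Of the cathepsin and lysosome list, 15 of 24 tested members rose and 1 fell (14 and 1 without WT replicate 1), with a median log2 fold change of 0.60. Ctss, a cathepsin of antigen-presenting cells, had 163 and 119 CPM in delEx44 and 15.8 and 14.7 CPM in WT muscle (log2 fold change 3.21, SE 0.35, adjusted p = 1.56e-04). Both delEx44 libraries were far above both WT libraries. Ctsl and Ctsb, more widely made cathepsins, rose by 0.84 and 0.93 log2 units. Ctsd, cathepsin D, had 960.2 and 865 CPM in delEx44 and 885 and 856 CPM in WT muscle, with overlapping groups. Tfeb, the factor that drives lysosome genes, had a log2 fold change of -0.36, a call lost over the 4 run libraries alone (adjusted p = 0.0635).

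Fat oxidation was the metabolic group with the most genes lower. Of the fatty acid uptake and oxidation list, 1 of 30 tested members rose and 19 fell (1 and 18 without WT replicate 1, 0 and 7 without WT replicate 2, 1 and 7 without delEx44 replicate 2, 0 and 9 over the 4 run libraries alone), with a median log2 fold change of -0.51. Acsl1, which activates fatty acids with coenzyme A, had 217 and 212 CPM in delEx44 and 456 and 451 CPM in WT muscle (log2 fold change -1.08, SE 0.13, adjusted p = 1.35e-04). Cpt2 and Slc25a20, which pass fatty acids across the inner mitochondrial membrane, fell by 0.60 and 0.67 log2 units. Acadm, the medium-chain dehydrogenase, had 264 and 227 CPM in delEx44 and 357 and 427 CPM in WT muscle (log2 fold change -0.67, SE 0.12, adjusted p = 0.00160). Both WT libraries were above both delEx44 libraries for Acsl1 and for Acadm. Cpt1a, the carnitine transferase of liver and other tissues, was the exception with a log2 fold change of 0.85, a call lost over the 4 run libraries alone and without delEx44 replicate 1 or WT replicate 2 (adjusted p = 0.0514 to 0.0834). Cd36, a fatty acid transporter, and Cpt1b, the muscle carnitine transferase, had log2 fold changes of -0.28 and -0.59 that did not pass.

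Respiratory chain genes gave a count that turned on the libraries used. Of the oxidative phosphorylation list, 0 of 35 tested members rose and 7 fell (0 and 4 without WT replicate 1, 0 and 1 without WT replicate 2, 0 and 15 without delEx44 replicate 1, 0 and 1 without delEx44 replicate 2, 0 and 1 over the 4 run libraries alone), with a median log2 fold change of -0.25. Cox6a2, the muscle form of a cytochrome oxidase subunit, had 619 and 603 CPM in delEx44 and 884 and 1005 CPM in WT muscle (log2 fold change -0.63, SE 0.096, adjusted p = 5.08e-04). Its groups did not overlap. Of the mitochondrial regulation and citrate cycle list, 0 of 25 tested members rose and 9 fell (0 and 10 without WT replicate 1, 0 and 2 without WT replicate 2, 0 and 2 without delEx44 replicate 2, 0 and 4 over the 4 run libraries alone), with a median log2 fold change of -0.27. Esrrb, an orphan nuclear receptor, had 1.82 and 1.30 CPM in delEx44 muscle, against 6.53 and 9.94 CPM in WT muscle (log2 fold change -2.40, SE 0.33, adjusted p = 3.06e-04), and Mfn1, a mitofusin, fell by 0.57 log2 units. Ppargc1a, the coactivator that drives mitochondrial growth, had 109 and 33.4 CPM in delEx44 and 56.1 and 66.7 CPM in WT muscle and did not pass (log2 fold change 0.21, SE 0.47, adjusted p = 0.770). Its delEx44 libraries lay on either side of the WT libraries.

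Of the glycolysis list, 1 of 21 tested members rose and 4 fell (2 and 1 without WT replicate 1, 1 and 2 without WT replicate 2, 1 and 2 without delEx44 replicate 2, 2 and 1 over the 4 run libraries alone), with a median log2 fold change of -0.19. For this list and those below, the shares over all genes tested were 14.9% higher and 14.2% lower. Hk1, the hexokinase of most tissues, had 29.5 and 33.4 CPM in delEx44 muscle, against 20.4 and 19.8 CPM in WT muscle (log2 fold change 0.65, SE 0.11, adjusted p = 0.00101), and Hk2, the muscle form, had a log2 fold change of -0.29 that did not pass. Gpd2, the mitochondrial glycerophosphate dehydrogenase, fell by 0.64 log2 units. Of the glycogen list, 2 of 17 tested members rose and 7 fell (2 and 5 without WT replicate 1, 2 and 3 without WT replicate 2, 2 and 1 without delEx44 replicate 1, 1 and 3 without delEx44 replicate 2, 2 and 2 over the 4 run libraries alone), with a median log2 fold change of -0.37. Pgm1, a phosphoglucomutase, rose by 0.86. The symbol Pgm1 was used in older mouse annotation for another member of that family, and the deposited table does not give an identifier. Ppp1r3a, the muscle subunit that ties phosphatase to glycogen, fell by 0.46. Pygm, the glycogen phosphorylase of muscle, had 6567 and 6958 CPM in delEx44 and 8489.7 and 9258 CPM in WT muscle (log2 fold change -0.39, SE 0.13, adjusted p = 0.0429), a call lost over the 4 run libraries alone, under RLE size factors and without delEx44 replicates 1 or 2 or WT replicates 1 or 2 (adjusted p = 0.0509 to 0.208). Of the polyamine and amino acid list, 2 of 18 tested members rose and 4 fell (2 and 4 without WT replicate 1, 0 and 3 without WT replicate 2, 3 and 7 without delEx44 replicate 1, 1 and 1 without delEx44 replicate 2, 2 and 2 over the 4 run libraries alone), with a median log2 fold change of -0.11 (-0.26 to -0.0032 with 1 run library left out). Sms, spermine synthase, had 57.9 and 63.2 CPM in delEx44 and 93.1 and 95.3 CPM in WT muscle (log2 fold change -0.64, SE 0.11, adjusted p = 0.00108). Its WT libraries were both higher.

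Several muscle-restricted enzymes and ubiquitin ligase adaptors fell. Of that list, 1 of 20 tested members rose and 6 fell (0 and 7 without WT replicate 1, 2 and 8 under DESeq2), with a median log2 fold change of -0.31. Asb2, an adaptor that targets filamins for degradation, had 368 and 297 CPM in delEx44 and 952 and 1143 CPM in WT muscle (log2 fold change -1.66, SE 0.14, adjusted p = 1.38e-05). Klhl31, a kelch protein of muscle, had 247 and 258 CPM in delEx44 muscle, against 433 and 397 CPM in WT muscle (log2 fold change -0.72, SE 0.089, adjusted p = 1.46e-04). Smtnl2, a smoothelin-like protein, fell by 0.99 log2 units. The groups did not overlap for Asb2 or Klhl31. Mettl21c, a lysine methyltransferase of muscle, had 23.6 and 32.4 CPM in delEx44 and 150.0 and 77.1 CPM in WT muscle (log2 fold change -2.02, SE 0.42, adjusted p = 0.00566), a call lost over the 4 run libraries alone (adjusted p = 0.0641). Of the atrophy and autophagy list, 1 of 19 tested members rose and 4 fell (0 and 6 without WT replicate 1, 1 and 2 without WT replicate 2, 2 and 5 under DESeq2, 1 and 2 over the 4 run libraries alone), with a median log2 fold change of -0.16 (-0.31 to 0.011 with 1 run library left out). By comparison, 14.9% of all genes tested were higher and 14.2% lower. Fbxo32, a ubiquitin ligase used as a mark of atrophy, had 267 and 109 CPM in delEx44 and 296 and 383 CPM in WT muscle and did not pass (log2 fold change -0.85, SE 0.45, adjusted p = 0.184). Fbxo32 did pass without delEx44 replicate 1 (adjusted p = 0.0387). Its counterpart Trim63 had 401 and 178 CPM in delEx44 and 242 and 359 CPM in WT muscle, with overlapping groups.

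Cdkn2a had one of the sharpest rises of the p53 and senescence list, of which 6 of 20 tested members rose and 3 fell (5 and 1 without WT replicate 1, 6 and 1 without delEx44 replicate 2), with a median log2 fold change of 0.39 (0.18 to 0.38 with 1 run library left out). For this list and the cell cycle list, the shares over all genes tested were 14.9% higher and 14.2% lower. Cdkn2a, which encodes the cell cycle inhibitors p16 and p19Arf, had 4.58 and 4.48 CPM in delEx44 muscle, against 0.178 and 0.113 CPM in WT muscle (log2 fold change 4.94, SE 0.41, adjusted p = 1.38e-05). Both delEx44 libraries were at nearly the same level. Cdkn1a, the inhibitor p21 and a target of p53, had 81.6 and 58.8 CPM in delEx44 and 26.9 and 52.2 CPM in WT muscle and did not pass (log2 fold change 0.83, SE 0.51, adjusted p = 0.256). Cdkn1c, the inhibitor p57, and Eda2r, a receptor of the TNF family, rose by 0.83 and 1.32 log2 units. Aen, a nuclease induced by p53, fell by 0.60. Of the cell cycle list, 8 of 28 tested members rose and 1 fell (6 and 1 without WT replicate 1, 0 and 1 without WT replicate 2, 3 and 1 without delEx44 replicate 1, 3 and 1 without delEx44 replicate 2, 13 and 1 under DESeq2, 5 and 1 under limma-voom, 5 and 1 over the 4 run libraries alone), with a median log2 fold change of 0.75 (0.48 to 1.12 with 1 run library left out). Ccnb1, cyclin B1, had 1.77 and 1.58 CPM in delEx44 muscle, against 0.653 and 0.480 CPM in WT muscle (log2 fold change 1.56, SE 0.39, adjusted p = 0.00938), a call lost without WT replicate 2 (adjusted p = 0.0841). Mki67, a marker of dividing cells, had 19.6 and 12.7 CPM in delEx44 and 15.5 and 7.93 CPM in WT muscle and did not pass (log2 fold change 0.47, SE 0.50, adjusted p = 0.519). Aurka, a mitotic kinase, fell by 0.89 log2 units, against the direction of the other members that passed.

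Of the stress response and serine synthesis list, 6 of 29 tested members rose and 7 fell (2 and 5 without WT replicate 1, 3 and 4 without WT replicate 2, 4 and 4 without delEx44 replicate 2, 4 and 4 over the 4 run libraries alone), with a median log2 fold change of 0.070 (-0.037 to 0.28 with 1 run library left out). The background here is again 14.9% of all genes higher and 14.2% lower. Hmox1, heme oxygenase 1, had 22.9 and 27.6 CPM in delEx44 and 10.3 and 10.4 CPM in WT muscle (log2 fold change 1.28, SE 0.20, adjusted p = 8.15e-04). Nqo1, another target of the antioxidant factor Nrf2, fell: it had 20.7 and 24.97 CPM in delEx44 muscle, against 30.9 and 34.4 CPM in WT muscle (log2 fold change -0.52, SE 0.099, adjusted p = 0.00205). Both genes separated the genotypes, in opposite directions. Atf4 and Atf5, factors of the integrated stress response, fell by 0.52 and 0.46 log2 units, while Psat1, an enzyme of serine synthesis, rose by 1.02. Mt2, a metallothionein, had 79.7 and 104 CPM in delEx44 muscle, against 7.42 and 13.3 CPM in WT muscle (log2 fold change 3.15, SE 0.73, adjusted p = 0.0108), a call lost without WT replicate 1 (adjusted p = 0.0724). Of the immediate early list, 4 of 20 tested members rose and 0 fell (3 and 0 without WT replicate 1, 2 and 0 without WT replicate 2), with a median log2 fold change of 0.86 (0.40 to 0.78 with 1 run library left out). Fosl1, a member of the AP-1 family, had 0.869 and 1.85 CPM in delEx44 muscle, against 0.0890 and 0.0282 CPM in WT muscle (log2 fold change 4.47, SE 0.81, adjusted p = 0.00159). Fos, induced within minutes of a stimulus, had 25.4 and 26.0 CPM in delEx44 and 8.90 and 8.27 CPM in WT muscle and did not pass (log2 fold change 1.58, SE 0.90, adjusted p = 0.222). Fos did pass over the 4 run libraries alone (adjusted p = 0.00150).

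Clock genes moved in opposite directions. Of the circadian list, 4 of 19 tested members rose and 5 fell (0 and 4 without WT replicate 1, 2 and 4 without WT replicate 2, 1 and 5 without delEx44 replicate 1), with a median log2 fold change of -0.12 (-0.18 to 0.15 with 1 run library left out). No member rose without WT replicate 1. Arntl, the activator of the clock also called Bmal1, had 8.22 and 14.5 CPM in delEx44 muscle, against 46.03 and 52.2 CPM in WT muscle (log2 fold change -2.11, SE 0.34, adjusted p = 0.00134). Cry1, a repressor, had 12.0 and 12.4 CPM in delEx44 muscle, against 26.9 and 25.8 CPM in WT muscle (log2 fold change -1.11, SE 0.22, adjusted p = 0.00327). Neither gene overlapped between genotypes, and both kept their call under all 9 alternatives. Ciart, a repressor of the clock, had 12.1 and 4.35 CPM in delEx44 and 0.742 and 1.04 CPM in WT muscle (log2 fold change 3.20, SE 0.71, adjusted p = 0.00682), a call lost without WT replicate 1 (adjusted p = 0.0539). Dbp, an output factor, had 134 and 114 CPM in delEx44 and 14.5 and 28.4 CPM in WT muscle (log2 fold change 2.53, SE 0.65, adjusted p = 0.0167), a call lost without delEx44 replicate 1 or WT replicate 1 (adjusted p = 0.0597 to 0.100). Per2 and Per3, of the period family, were higher in both delEx44 libraries, calls lost in 1 or both with no filter on low counts, over the 4 run libraries alone and without delEx44 replicate 1 or WT replicates 1 or 2 (adjusted p = 0.0754 to 0.284).

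In sedentary muscle at 4 weeks the same genes stood otherwise. Arntl had 35.1, 30.9 and 29.9 CPM in sedentary delEx44 muscle against 23.0, 24.4 and 17.4 CPM in sedentary WT muscle, and Dbp had 10.9, 17.3 and 14.9 CPM in sedentary delEx44 muscle against 48.2, 53.5 and 87.4 CPM in sedentary WT muscle. The delEx44 libraries were the higher ones for Arntl and the lower ones for Dbp, the reverse of the run libraries. The hour at which muscle was collected is not given in the labels, and its part in these values was not tested.

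**Figure D4:**
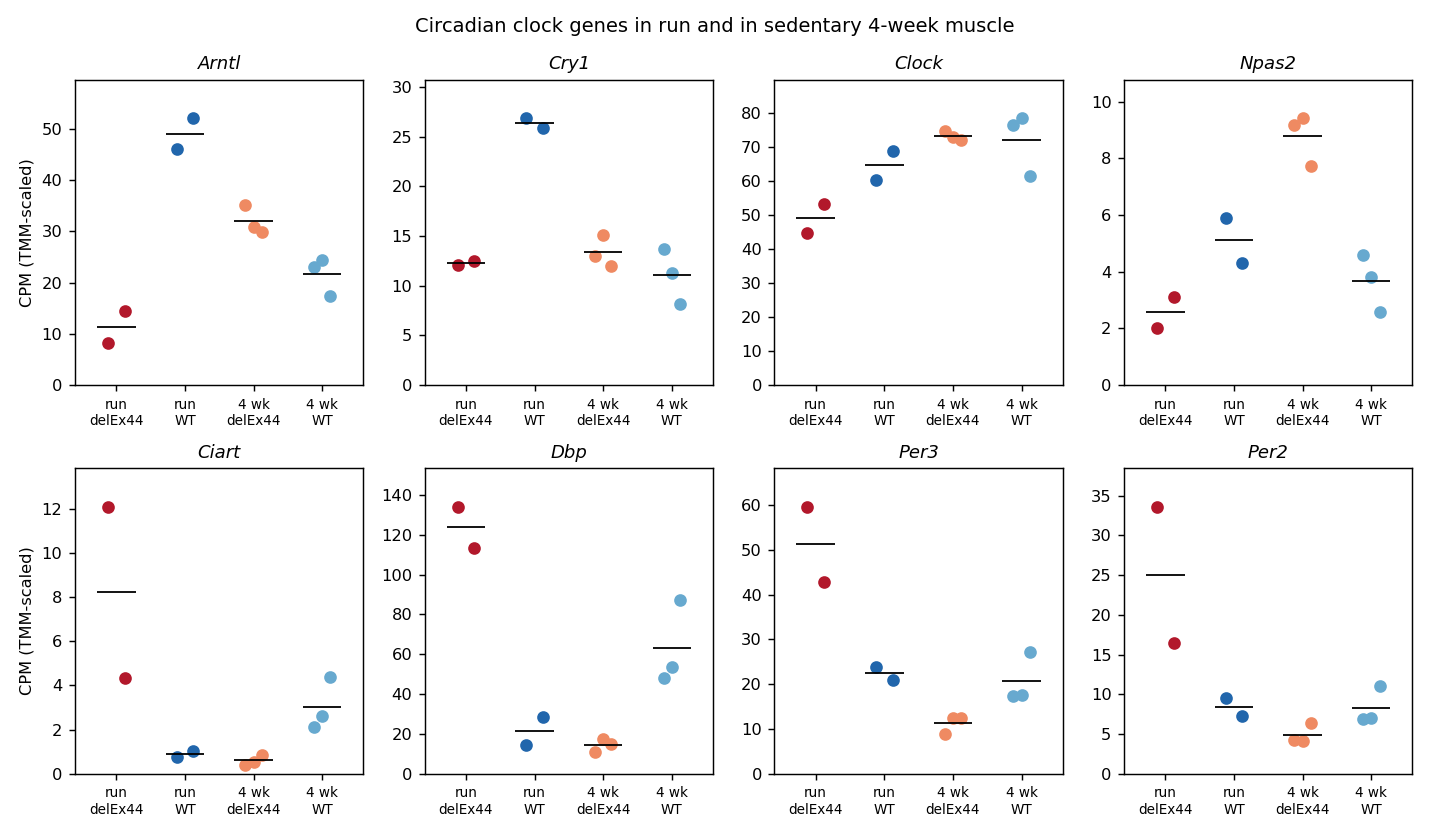
Levels of 8 circadian clock genes in run delEx44, run WT, sedentary 4-week delEx44 and sedentary 4-week WT muscle, in TMM-scaled CPM. Each point is 1 library and each line a group mean; after running the delEx44 mean is below the WT mean for Arntl, Cry1, Clock and Npas2 and above it for Ciart, Dbp, Per3 and Per2, and at 4 weeks it is above for Arntl and Npas2 and below for Ciart, Dbp, Per3 and Per2.

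Few vessel or tendon genes passed, while several Schwann cell genes fell. Of the vessel and pericyte list, 1 of 24 tested members rose and 3 fell (1 and 1 without WT replicate 1, 1 and 0 without WT replicate 2, 2 and 0 without delEx44 replicate 2, 1 and 1 over the 4 run libraries alone), with a median log2 fold change of -0.0090 (-0.078 to 0.019 with 1 run library left out), and Pecam1, an endothelial junction protein, had 121 and 119 CPM in delEx44 and 99.7 and 112 CPM in WT muscle and did not pass (log2 fold change 0.18, SE 0.13, adjusted p = 0.323). Hif1a, the oxygen-regulated factor, had 46.9 and 49.6 CPM in delEx44 and 32.4 and 30.0 CPM in WT muscle (log2 fold change 0.63, SE 0.097, adjusted p = 5.39e-04). Of the Schwann cell list, 2 of 14 tested members rose and 6 fell (1 and 7 without WT replicate 1, 1 and 2 without WT replicate 2, 2 and 3 without delEx44 replicate 1, 1 and 3 without delEx44 replicate 2), with a median log2 fold change of -0.56 (-0.74 to -0.33 with 1 run library left out). S100b, a calcium-binding protein of Schwann cells, had 1.61 and 1.33 CPM in delEx44 and 4.06 and 4.04 CPM in WT muscle (log2 fold change -1.46, SE 0.24, adjusted p = 8.13e-04), and Mal, a myelin protein, fell by 1.01 log2 units. Ngfr, the low-affinity neurotrophin receptor, which Schwann cells regain after injury, had 2.45 and 2.91 CPM in delEx44 and 1.31 and 1.30 CPM in WT muscle (log2 fold change 1.04, SE 0.22, adjusted p = 0.00394). S100b and Ngfr each separated the genotypes. Of the tendon and cartilage list, 2 of 16 tested members rose and 1 fell (1 and 0 without WT replicate 1, 1 and 0 without delEx44 replicate 2, 1 and 2 over the 4 run libraries alone), with a median log2 fold change of 0.13, and Cilp, a matrix protein that binds TGF-beta, had 298 and 345 CPM in delEx44 and 57.1 and 76.9 CPM in WT muscle (log2 fold change 2.26, SE 0.27, adjusted p = 1.66e-04).

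Some genes outside these lists were among those with the smallest p-values or the largest changes. Anpep, an aminopeptidase of myeloid and stromal cells, had 51.9 and 49.0 CPM in delEx44 and 13.4 and 14.4 CPM in WT muscle (log2 fold change 1.86, SE 0.12, adjusted p = 2.09e-06). Pld3, a lysosomal nuclease, had 54.9 and 58.3 CPM in delEx44 muscle, against 20.8 and 22.0 CPM in WT muscle (log2 fold change 1.40, SE 0.097, adjusted p = 4.94e-06), and Myo5a, a myosin motor that carries vesicles, had 50.03 and 53.5 CPM in delEx44 muscle, against 22.6 and 19.6 CPM in WT muscle (log2 fold change 1.30, SE 0.099, adjusted p = 1.03e-05). These 3 genes were higher in both delEx44 libraries. Il7r, the interleukin 7 receptor, and Galnt6, an enzyme of mucin-type glycosylation, rose by 4.22 and 3.90 log2 units. Among the falls, Fbxl4, a mitochondrial F-box protein, had 18.997 and 20.7 CPM in delEx44 and 37.0 and 35.3 CPM in WT muscle (log2 fold change -0.86, SE 0.079, adjusted p = 2.10e-05), and Celsr2, an adhesion receptor of the cadherin family, had 6.85 and 6.28 CPM in delEx44 muscle, against 16.2 and 17.0 CPM in WT muscle (log2 fold change -1.34, SE 0.13, adjusted p = 2.64e-05). Exph5, a Rab27 effector in vesicle transport, had 0.158 and 0.138 CPM in delEx44 and 3.86 and 3.39 CPM in WT muscle (log2 fold change -4.58, SE 0.41, adjusted p = 2.03e-05). All 3 separated the genotypes. Genes picked by small p-values or large changes tend to do so, and 63.7% of all genes tested did. Asb4, a further ubiquitin ligase adaptor, fell by 1.44 log2 units, Efcab6 by 2.25 and Ccdc146 by 2.16.

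The run difference was set beside that between sedentary delEx44 and WT muscle at 4 weeks, with 3 libraries each, in the same fit. No sedentary group of 8 weeks is among the samples, so running and age cannot be told apart in what follows. Of 4370 genes that passed after running, 3455 also passed in sedentary muscle, 3426 of them in the same direction and 29 in opposite directions. The groups share no library, although all enter 1 estimate of the spread. The sedentary comparison had more calls, 7541 genes (50.2%). For the difference between the 2 comparisons (run minus sedentary), 2642 genes (17.6%) had an unadjusted p under 0.05 in edgeR's quasi-likelihood test. A difference that did not pass after adjustment does not show that the 2 comparisons were equal. After adjustment it passed for 132 genes (0.879%), 88 higher (0.586%) and 44 lower (0.293%). That count was 11 without run WT replicate 1, and 7 genes passed under all 15 alternatives tried for it.

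Ctxn3, cortexin 3, a small membrane protein, was one of these 7. It had 124 and 92.8 CPM in delEx44 and 19.8 and 28.6 CPM in WT muscle after running (log2 fold change 2.17, SE 0.21, adjusted p = 5.63e-05) and 14.2, 13.3 and 12.8 CPM in sedentary delEx44 muscle against 15.0, 15.7 and 17.5 CPM in sedentary WT muscle (difference between the comparisons 2.42 log2 units, SE 0.27, adjusted p = 0.00597). After running the delEx44 libraries were well above WT, and in sedentary muscle the groups were close. Otub2, a deubiquitinase, had 6.61 and 6.23 CPM in delEx44 and 22.6 and 27.8 CPM in WT muscle (log2 fold change -1.97, SE 0.18, adjusted p = 1.99e-05) and 5.72, 5.52 and 6.20 CPM in sedentary delEx44 muscle against 6.96, 6.17 and 9.13 CPM in sedentary WT muscle (difference between the comparisons -1.62 log2 units, SE 0.23, adjusted p = 0.0131). The genotypes lay further apart after running than in sedentary muscle. Asb2, described above, had 259.8, 331 and 303 CPM in sedentary delEx44 muscle against 442, 410.3 and 399 CPM in sedentary WT muscle (difference between the comparisons -1.17 log2 units, SE 0.18, adjusted p = 0.0172). Dapp1, an adaptor of phosphoinositide signalling, had 5.19 and 5.34 CPM in delEx44 muscle, against 8.25 and 11.3 CPM in WT muscle and 7.78, 7.99 and 7.30 CPM in sedentary delEx44 muscle against 4.63, 4.01 and 4.73 CPM in sedentary WT muscle (difference between the comparisons -1.68 log2 units, SE 0.23, adjusted p = 0.0121). It was the lower one in delEx44 muscle after running and the higher one in sedentary muscle. Dhrs7c, a dehydrogenase of the sarcoplasmic reticulum, had log2 fold changes of -0.20 after running and -1.06 in sedentary muscle (difference between the comparisons 0.86 log2 units, SE 0.10, adjusted p = 0.00597). After running Dhrs7c did pass under DESeq2 (adjusted p = 0.0411). Rnf123, a ubiquitin ligase, had 154 and 175 CPM in delEx44 muscle, against 154 and 154 CPM in WT muscle after running and 96.9, 102 and 97.4 CPM in sedentary delEx44 muscle against 156, 154 and 158 CPM in sedentary WT muscle (difference between the comparisons 0.76 log2 units, SE 0.092, adjusted p = 0.00597).

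Fast fibre genes were lower in sedentary delEx44 muscle. In sedentary muscle 0 of 18 tested members passed as higher and 16 as lower, with a median log2 fold change of -0.88, against -0.26 after running. Over all genes tested, 25.2% were higher and 25% lower in sedentary delEx44 muscle. The difference between the comparisons passed for Actn3, the fast fibre alpha-actinin (1.00), Mybpc2, fast myosin binding protein C (0.89), Myoz1, a Z-disc protein (0.74), and Mylpf, the fast regulatory light chain (0.72), in log2 units. All 4 calls were lost over the 10 delEx44 and WT libraries alone and without run delEx44 replicates 1 or 2, run WT replicates 1 or 2 or sedentary WT replicates 1 or 2, and 1 or more of them with no filter on low counts, under RLE size factors and without sedentary delEx44 replicates 1 or 2 or sedentary WT replicate 3 (adjusted p = 0.0505 to 0.194). Of the calcium handling list, Ryr1, the release channel, and Cacna1s, its voltage sensor, passed likewise (0.76 and 0.74). Both calls were lost over the 10 delEx44 and WT libraries alone and without run delEx44 replicates 1 or 2, run WT replicate 1, sedentary delEx44 replicate 1 or sedentary WT replicates 1 or 2, and 1 or more of them without run WT replicate 2 or sedentary delEx44 replicate 2 (adjusted p = 0.0514 to 0.206).

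Among other listed genes, Myod1 had 64.9, 43.4 and 39.9 CPM in sedentary delEx44 muscle against 13.1, 14.1 and 13.7 CPM in sedentary WT muscle, where it rose, and a difference between the comparisons of -2.33 log2 units. The call was lost over the 10 delEx44 and WT libraries alone and without run delEx44 replicate 1, run WT replicate 1, sedentary delEx44 replicate 1 or sedentary WT replicates 1 or 2 (adjusted p = 0.0569 to 0.124). Of the clock genes, the difference was -2.68 for Arntl, -1.38 for Cry1, 5.54 for Ciart and 4.66 for Dbp. All 4 calls were lost without run delEx44 replicate 1, run WT replicates 1 or 2, sedentary delEx44 replicate 1 or sedentary WT replicate 2, and 1 or more of them under limma-voom, with no filter on low counts, over the 10 delEx44 and WT libraries alone and without run delEx44 replicate 2, sedentary delEx44 replicates 2 or 3 or sedentary WT replicates 1 or 3 (adjusted p = 0.0527 to 0.198). Of the interferon response list, 29 of 29 tested members passed as higher and 0 as lower in sedentary muscle, with a median log2 fold change of 1.46 against 0.56 after running. The sedentary shares over all genes tested were 25.2% higher and 25% lower. The difference between the comparisons was tested gene by gene and not for the list.

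**Figure D5:**
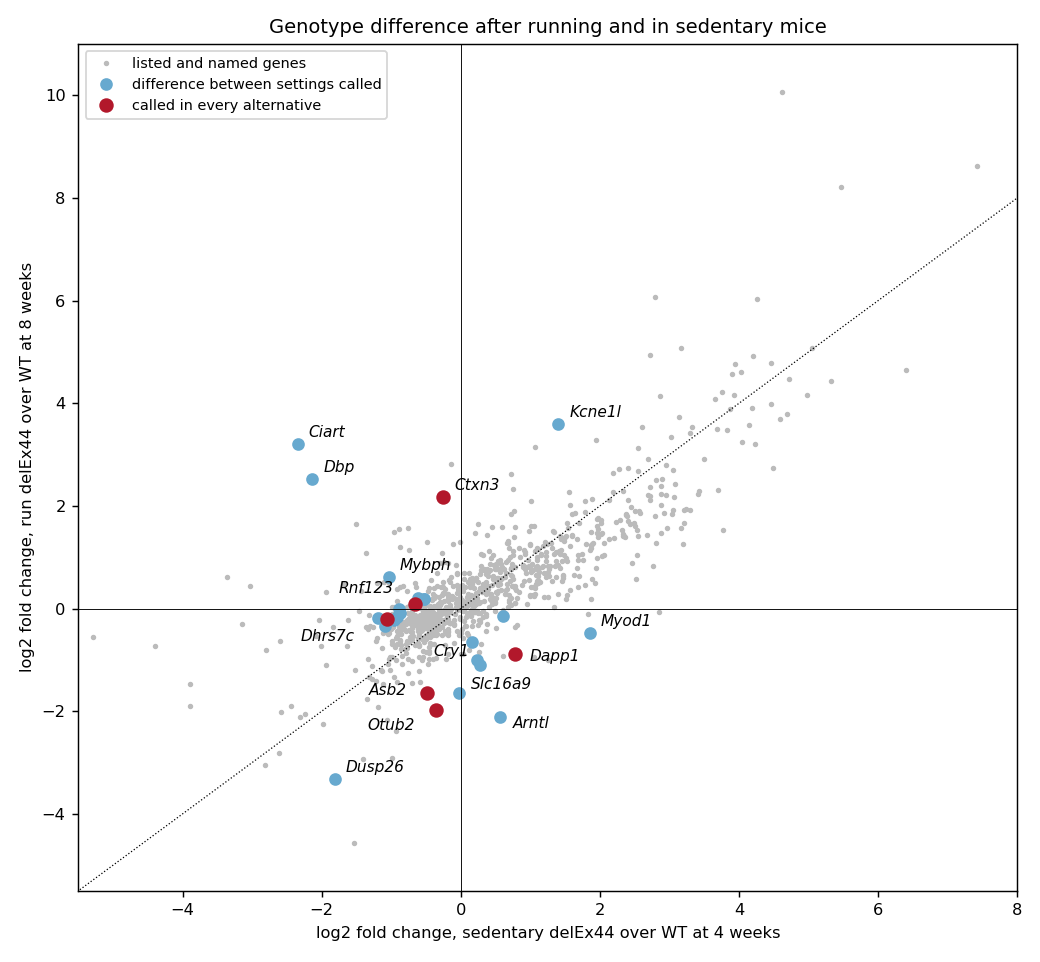
Log2 fold change of delEx44 over WT after running at 8 weeks (vertical axis) against that in sedentary muscle at 4 weeks (horizontal axis), for the listed and named genes. Coloured points are named genes whose difference between the comparisons passed, red where it passed under every alternative; the dotted line marks equal values, and Ctxn3 lies above it while Otub2, Asb2 and Dapp1 lie below.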

How the data were processed

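PolyA RNA of mouse quadriceps was sequenced, and the authors deposited whole-number read counts per gene symbol, not normalized. The submitters' processing notes list, with no roles, mm10 as the build and HTSeq, edgeR, Trim Galore, SAMtools 1.9, STAR 2.7.2b and Bowtie2 2.3.4.3 as software. For the counting, the strand setting and annotation used are not stated, so near-identical copies, overlapping genes and antisense genes are uncertain.

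The 5 rows that name no gene (27.4% to 34.2% of records) were dropped, leaving 30.6 to 38.1 M (mega) counts per library over 24062 symbols. The deposited counts of the 15 libraries of the 4-week and run table, corrected mice included, entered 1 fit in R 4.3.3 with edgeR 4.0.16 (TMM, filterByExpr, robust quasi-likelihood test, Benjamini-Hochberg threshold 0.05), with 1 mean per group and 9 residual degrees of freedom. The contrasts were delEx44 minus WT after running, the same in sedentary mice, and their difference. The alternatives were RLE size factors, no filter, DESeq2 1.42.0, limma 3.58.1 with voom, the compared libraries alone, and each library left out. No group's libraries held identical values.

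Genes were named by these rules: a list of genes chosen for their roles; the 15 largest rises and 15 largest falls that passed, reached a group mean of 5 CPM and did not overlap; the 10 smallest p-values in each direction; up to 5 members per list by p; and 8 in each direction for the difference between the comparisons. Predicted genes were not named, and some genes these rules gave are not reported here. The members and lists were chosen with earlier results of these data known. Of the 943 genes in 48 lists, 917 were tested. Coordinates are from GENCODE vM21 and promoters from RefSeq. Count intervals are exact at 95% and cover counting error only. On simulated counts of 14792 genes for the run comparison, the test recovered 23 of 50 genes changed 1.5-fold, 35 of 50 changed 2-fold, 47 of 50 changed 4-fold and 48 of 50 changed 8-fold, with 7 false calls. Only those genes, chosen above a low expression floor, were changed, and in run delEx44 muscle alone. A far larger share passed in the real comparison, so these rates do not carry over to it.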

Additional observations from a re-analysis of the deposited data

Results flagged for a closer look

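Each result here had a genotype difference (delEx44 over WT) that differed between the run mice of 8 weeks and the sedentary mice of 4 weeks by the test of the difference itself in edgeR's quasi-likelihood fit. Values are the run minus the sedentary log2 fold change. Running and age cannot be told apart in them.

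The difference passed under every alternative tried for Ctxn3 (2.42), Dhrs7c (0.86), Rnf123 (0.76), Asb2 (-1.17), Otub2 (-1.62) and Dapp1 (-1.68). For Ctxn3, Otub2 and Asb2 the genotypes were further apart after running. For Dhrs7c and Rnf123 they were further apart in sedentary muscle.

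Among fast fibre and calcium release genes the difference was positive for Actn3 (1.00), Mybpc2 (0.89), Myoz1 (0.74), Mylpf (0.72), Ryr1 (0.76) and Cacna1s (0.74), which were lower in sedentary delEx44 muscle. Each of these 6 calls was lost under 7 to 12 of the 15 alternatives. Myoz3, a Z-disc protein (0.79), and Mybph, a myosin binding protein (1.64), had the same direction, and both calls were lost without run WT replicate 1 (adjusted p = 0.0948 and 0.0892).

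Clock genes had differences of 5.54 for Ciart, 4.66 for Dbp, -1.38 for Cry1 and -2.68 for Arntl. These calls were lost without several libraries, and the hour of collection, which the labels do not give, was not tested.

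Myod1 (-2.33) lost the call without run WT replicate 1 and other libraries. Kcne1l, a potassium channel accessory subunit (2.19), had 7.96 and 10.3 CPM in run delEx44 muscle, against 0.889 and 0.620 CPM in run WT muscle, and lost the call without run WT replicate 1 or 2 (adjusted p = 0.0542 and 0.0541). Dusp26, a phosphatase (-1.52), had 7.83 and 6.70 CPM in run delEx44 muscle, against 65.8 and 80.4 CPM in run WT muscle, and lost the call under 6 of 15 alternatives. Slc16a9, a carnitine transporter (-1.61), and Rnpep, an aminopeptidase (-0.75), lost theirs without run delEx44 replicate 1 or run WT replicate 1. Tbc1d1, a regulator of glucose transporter traffic (-1.25), and Cpe, carboxypeptidase E (0.72), lost theirs without run WT replicate 1 (adjusted p = 0.0719 and 0.0675). Deptor, an inhibitor of mTOR (0.83), lost its call without run delEx44 replicate 1 (adjusted p = 0.0533), and Sphk2, a sphingosine kinase (-0.81), under 5 of 15 alternatives.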

How the results depend on the processing

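The run comparison called 4370 genes, 2239 higher and 2131 lower in delEx44 muscle. With the 4 run libraries alone it called 2330 (1476 higher and 854 lower), so 63.3% of calls were higher, against 51.2% in the fit of 15 libraries. With 1 run library left out, the counts ran between 2384 (without WT replicate 2) and 3187 (without WT replicate 1) called, 1281 and 1700 higher, and 1103 and 1505 lower. A lone library left in a group is then assumed to vary like the other groups. RLE size factors, no filter, DESeq2 and limma-voom gave 4311, 4053, 4461 and 4318. Of 141 named genes that passed, 123 passed under every alternative, 18 lost the call in at least 1 and 0 turned direction. Ppargc1a, which did not pass, had a log2 fold change of -0.020 under limma-voom and between -0.88 and 0.83 with 1 library left out. Log2 fold changes of Atp2a1 and Cd3e, which did not pass either, ranged with 1 library left out between -0.20 (without WT replicate 1) and 0.022 (without WT replicate 2) for Atp2a1, and between -0.068 (without delEx44 replicate 1) and 2.11 (without WT replicate 1) for Cd3e. The difference between the comparisons passed for 132 genes, 718 under DESeq2, 41 over the 10 delEx44 and WT libraries alone, and 11 (without run WT replicate 1) to 167 (without sedentary WT replicate 3) with 1 library left out. The causes of these shifts were not tested. The list counts without WT replicate 1 were an alternative chosen after seeing the data. No paired analysis was possible because the run delEx44 libraries carry mouse numbers that match no WT number. In simulated counts of the run comparison, 23 of 50 genes changed 1.5-fold were recovered. A far smaller share of genes was changed there than was called here, so this rate does not carry over to these data. Small changes that did not pass may still have gone undetected.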

Other observations

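The 2 run delEx44 libraries differed from each other in several metabolic and stress genes. In TMM-scaled CPM, Pdk4, which blocks glucose oxidation, had 510.1 in delEx44 replicate 1 and 36.2 in replicate 2, against 315 and 383 in WT muscle. Ddit4, a stress-induced inhibitor of mTOR, had 173 and 28.1 in delEx44, against 7.89 and 20.7 in WT muscle. Ucp3, a mitochondrial uncoupling protein of muscle, had 102 and 16.2 in delEx44, against 79.3 and 59.4 in WT muscle. Glul, glutamine synthetase, had 1109.9 and 351 in delEx44, against 253 and 409 in WT muscle. Nr4a3, an exercise-responsive nuclear receptor, had 9.17 and 0.914 in delEx44, against 1.42 and 2.23 in WT muscle. For each of these genes replicate 1 was the highest of the 4 run libraries. These genes were chosen after their values were seen. Replicate 2 held more of the chemokine Ccl7, with 1.502 and 16.3 in delEx44, against 0.593 and 0.395 in WT muscle.

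Of 10612 genes with at least 5 CPM, 151 differed by 2-fold or more between the delEx44 replicates and 122 between the WT replicates. By 4-fold or more, 16 differed between the delEx44 replicates and 46 between the WT replicates.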
